A study of Mus musculus with 44 samples.

Results

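The genes described here encode 10 nuclear receptors that can pair with the retinoid X receptor (RXR), other than the retinoic acid receptors. They are the liver X receptor genes Nr1h2 and Nr1h3, the peroxisome proliferator-activated receptor genes Ppara, Ppard and Pparg, the thyroid hormone receptor genes Thra and Thrb, the vitamin D receptor gene Vdr, and the NR4A receptor genes Nr4a1 and Nr4a2. They were chosen by name, and their rows were taken from both count tables, 10 of 55487 gene rows. All 10 passed the filter on low counts in both tables.

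RXR proteins bind DNA mostly as heterodimers with another nuclear receptor. With LXR, PPAR or the NR4A proteins a ligand of RXR alone can activate the pair, whereas thyroid hormone and vitamin D receptors mostly respond to their own ligand. LXRs sense oxysterols and drive cholesterol efflux, PPARs sense fatty acids, and thyroid hormone receptors act on neuronal maturation and metabolism. Nr4a1 is an activity-induced gene of striatal neurons, and Nr4a2 is known for its role in dopamine neurons and in deep cortical and claustral neurons.

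RNA of the mouse nucleus accumbens, the ventral part of the striatum, was sequenced after infusion of a viral vector with RXRa or a fluorescent control. The bulk libraries came from males given a herpes simplex virus vector, HSV-GFP (n = 4) or HSV-RXRa-GFP (n = 4). The sorted libraries came from nuclei labelled D1 or D2 after AAV9-CAG-DIO-EGFP or AAV9-CAG-DIO-EGFP-P2A-RXRa, whose insert needs Cre recombinase to be turned on. There were 5 EGFP and 4 RXRa libraries of D1 nuclei in each sex, 4 and 4 of D2 nuclei in females, and 5 and 4 in males. Age, strain, the Cre driver line and pooling of animals are not given in the labels. Nothing in the labels says that the libraries of a group came from separate animals, so p-values measure the spread between libraries only. For 1 further sorted library the labels disagree on the vector, so it was left out of every comparison.

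Gene counts summed to between 21567565 and 29167142 in the bulk libraries and between 12211655 and 27757463 in the sorted ones. The vector RXRa sequence had 0 counts in all 4 bulk GFP libraries, at most 17 counts in a sorted EGFP library, and at least 567 counts in each RXRa library that entered a comparison. Drd1, the defining gene of D1 neurons, was at 30.7 to 83.8 CPM (counts per 1000000 counts of a library after TMM scaling) in D1 libraries and at 6.49 to 38.6 CPM in D2 libraries. Drd2, the defining gene of D2 neurons, was at 520 to 1779 CPM in D2 libraries and at 49.0 to 106 CPM in D1 libraries. CPM is not scaled by gene length, so these ranges give no order of Drd1 and Drd2 within the D1 libraries.

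The sequences before the starts of Nr1h3 and Thrb are shown because these were the receptor genes that passed the test in bulk tissue. Each is the 250 bases upstream of the first start listed by RefSeq (GRCm38.p6), with capitals for AGGTCA on either strand, the element that most RXR heterodimers bind as a repeat.
Nr1h3, chr2:91195117-91195366, minus strand: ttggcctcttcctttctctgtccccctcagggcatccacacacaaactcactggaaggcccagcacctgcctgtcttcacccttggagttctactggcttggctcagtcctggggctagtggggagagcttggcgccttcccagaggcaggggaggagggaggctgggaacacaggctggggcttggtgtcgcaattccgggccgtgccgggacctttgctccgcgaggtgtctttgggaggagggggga
Thrb, chr14:17660710-17660959, plus strand: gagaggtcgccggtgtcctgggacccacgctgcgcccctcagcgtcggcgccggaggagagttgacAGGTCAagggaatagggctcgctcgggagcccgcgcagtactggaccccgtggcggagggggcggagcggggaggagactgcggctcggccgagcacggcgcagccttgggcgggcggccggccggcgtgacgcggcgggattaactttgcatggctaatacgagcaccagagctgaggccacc
The Thrb sequence held 1 AGGTCA, beginning 184 bases before the start, and the Nr1h3 sequence held none of these letters. AGGTCA was found in 14% of the 32851 starts of the table. Among 13 starts of the 9 receptor genes with an entry it was found in 3, the other two being starts of Pparg, and AAAGGTCA, the element that NR4A proteins bind as monomers, in 0. These are matches of letters within a short window and no measure of binding.

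In bulk tissue under GFP the receptors spanned a wide range of levels per length. Thra stood highest at 157 ± 4.64 CPM per kb of annotated exon (SD, n = 4). Nr4a1 followed at 22 ± 8.33 and Nr1h2 at 16.3 ± 1.25 CPM per kb (SD, n = 4), and the ranges of these neighbours overlapped. Thrb had 8.42 ± 0.779 CPM per kb (SD, n = 4), separate from Nr1h2 above and from Ppard below. Ppard had 4.45 ± 0.357, Nr4a2 3.09 ± 4.60 and Nr1h3 2.19 ± 0.339 CPM per kb (SD, n = 4). Nr4a2 overlapped both of those neighbours because of a single library. The lowest were Ppara at 0.722 ± 0.0907, Pparg at 0.145 ± 0.0189 and Vdr at 0.114 ± 0.0556 CPM per kb (SD, n = 4), with Pparg and Vdr overlapping. Pparg rested on 10 to 14 counts per GFP library and Vdr on 9 to 26, so both were close to the lower limit of what these libraries could measure.

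Sorted nuclei gave a much flatter picture. Total RNA of nuclei can give reads over whole gene bodies, so levels were taken per kb of gene body and set against silent genes, the 1576 protein-coding genes on autosomes that span 5 kb or more and had no count in any bulk library. The median density of those genes in each library was used as 1. Over the 35 libraries with a group, silent genes lay between 0.355 and 1.56 (5th to 95th percentile of their mean ratio). Thra had a mean ratio of 3.43, Thrb 1.85 and Nr4a1 1.85, above that range. Nr1h2 had 1.44, Ppara 1.36, Vdr 1.20, Pparg 1.12, Ppard 1.09, Nr1h3 1.02 and Nr4a2 0.924, all within it. For these 7 receptor genes the mean density in nuclei lay within the range seen at genes without any bulk count. The ranges of neighbours in the order of levels per kb of gene body overlapped for all 9 neighbouring pairs under EGFP.

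**Figure D1:**
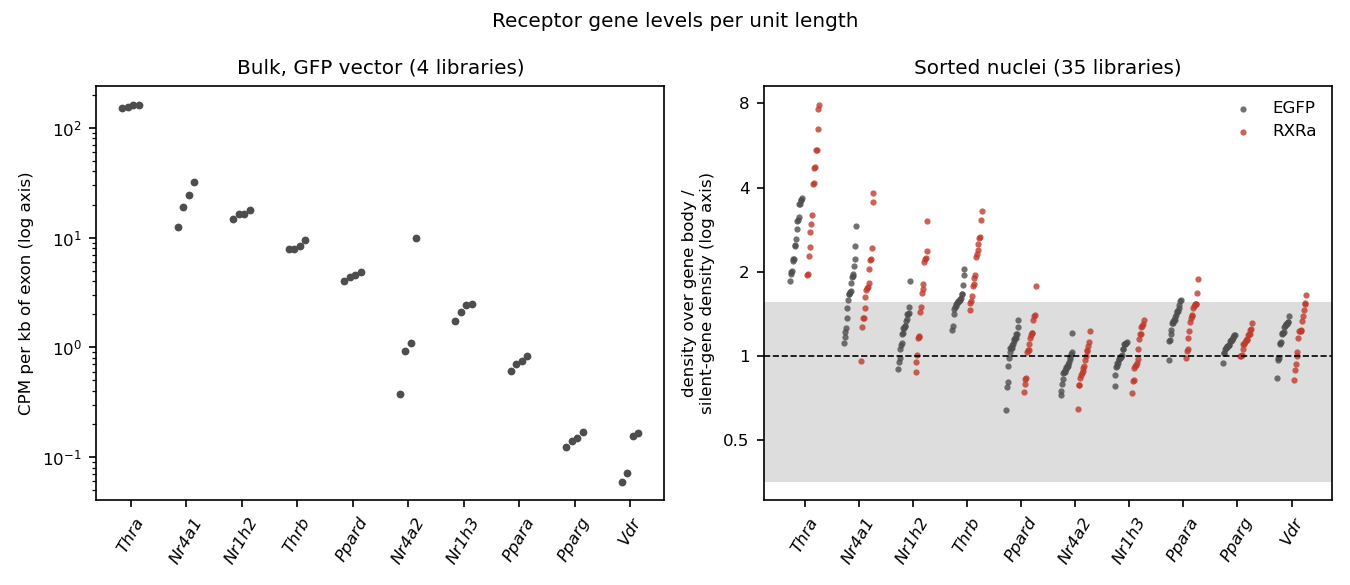
Left, CPM per kb of exon (log axis) in the 4 bulk GFP libraries, 1 point each. Right, density over the gene body divided by the silent-gene density of the same library (log axis) in the 19 EGFP and 16 RXRa sorted libraries, with a dashed line at 1 and a band from 0.355 to 1.56 for silent genes. The bulk levels fall from Thra to Vdr, while most receptor genes in nuclei lie inside the band.

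The bulk comparison asks how RXRa changed the tissue as a whole. The LXR alpha gene rose and the thyroid hormone receptor beta gene fell, while no other receptor gene passed the edgeR test at an adjusted p under 0.05. These 2 calls among 10 compare with 3.7% of all 18579 genes tested, 3.01% called higher and 0.689% called lower. The RXRa and GFP libraries did not overlap for 4 of the 10, Nr1h2 and Nr1h3 higher and Thra and Thrb lower, against 13.2% of all genes tested (6.64% higher and 6.54% lower). Fewer cells of a type and less RNA per cell cannot be told apart in bulk libraries. Gene positions below are on GRCm38 from the GENCODE M21 annotation and cover the whole gene body.

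Nr1h3 (ENSMUSG00000002108, chromosome 2, 91184061 to 91202834) encodes LXR alpha, the LXR of macrophages and liver. Its level was 6.26, 6.08, 4.40 and 5.25 CPM in GFP libraries 1 to 4 and 7.73, 10.4, 10.9 and 11.9 CPM in RXRa libraries 1 to 4. All 4 RXRa libraries were above all GFP libraries. The mean went from 5.50 ± 0.853 to 10.2 ± 1.77 CPM (SD, n = 4 each), a log2 fold change of 0.89 (SE 0.16, adjusted p 0.0217 in edgeR). The call held in 3 of the 8 fits that leave out a library, with edgeR adjusted p-values from 0.0062 to 0.0938. Nr1h3 shares 34 bp of exon with Gm13783 on the same strand, so its counts can depend on how shared reads were assigned.

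Most blood cell markers moved with it. T cell and NK cell markers were higher with RXRa for 6 of 7 genes, with a summed level of 53.7 to 68.3 CPM under GFP and 68.5 to 131 CPM under RXRa. Monocyte and neutrophil markers were called higher for 2 of 4 tested, with sums over the whole list of 32.1 to 73.9 and 116 to 224 CPM. All 4 had an unadjusted p under 0.05 in edgeR, but only 3 had a log2 fold change above 0. None of the 8 microglia markers was called, 1 had an unadjusted p under 0.05, and DESeq2 and limma voom called 0 as well. The microglia sums were 807 to 1291 CPM under GFP and 980 to 1394 CPM under RXRa. No marker of these lists was at 0 in any bulk library. The part of these cells in the Nr1h3 value was not tested. Of the other marker lists in bulk, astrocytes and endothelial cells each had 1 gene called higher and 4 at an unadjusted p under 0.05, and D2 neurons had 1 called lower and 6 at that p. D1 neurons, oligodendrocytes, their precursors, vascular wall cells, cortical neurons and interneurons had 0 called by edgeR, with 0, 3, 1, 0, 0 and 0 genes at an unadjusted p under 0.05.

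Nr1h2 (ENSMUSG00000060601, chromosome 7, 44549616 to 44553951) encodes LXR beta, the more widely expressed LXR of the brain. It had 54.8, 59.5, 55.1 and 49.3 CPM under GFP and 65.7, 63.1, 62.0 and 60.6 CPM under RXRa. The groups did not overlap, but the difference was small, with a log2 fold change of 0.20 (SE 0.06, adjusted p 0.11 in edgeR). Among 14 LXR target genes, which include cholesterol transporters and lipogenic enzymes, the only gene called was Nr1h3 itself, and the median log2 fold change was 0.03 against -0.02 over all genes. The transporter Abca1, a main LXR target, had a log2 fold change of -0.11 (SE 0.18, adjusted p 0.769 in edgeR).

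Thrb (ENSMUSG00000021779, chromosome 14, 17660261 to 18038090) encodes thyroid hormone receptor beta. Its level was 61.7, 58.5, 58.4 and 70.7 CPM under GFP and 48.2, 48.7, 48.6 and 53.3 CPM under RXRa. All RXRa libraries were below all GFP libraries, and RXRa library 4 stood above the close trio of the others. The log2 fold change was -0.33 (SE 0.07, adjusted p 0.0412 in edgeR). The call was lost in all 8 fits that leave out a library, with edgeR adjusted p-values from 0.0503 to 0.115.

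Thra (ENSMUSG00000058756, chromosome 11, 98740638 to 98769006) encodes thyroid hormone receptor alpha, the major form in the brain. Its level was 747, 739, 708 and 704 CPM under GFP and 675, 601, 602 and 564 CPM under RXRa. The groups did not overlap, with a log2 fold change of -0.25 (SE 0.06, adjusted p 0.0712 in edgeR). DESeq2 called it, with an adjusted p of 0.00737. Thra overlaps the clock gene Nr1d1 on the opposite strand over 263 bp of exon, and since the use of strand in counting is not stated, its value is uncertain to that extent.

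Markers of striatal projection neurons were lower in the same libraries. Their summed level was 4078 to 4863 CPM under GFP and 3575 to 4263 CPM under RXRa, 2 of 7 were called lower, and none had a log2 fold change above 0. The 6 tested markers of D2 neurons belong to a list with sums of 1722 to 2035 CPM under GFP and 1570 to 1748 CPM under RXRa. All 6 had an unadjusted p under 0.05, none had a log2 fold change above 0, and the median was -0.22. Oligodendrocyte markers summed to 5081 to 5673 CPM under GFP and 3102 to 5339 CPM under RXRa, with 0 of 7 above 0 and a median of -0.34. The part of these cells in the values of Thra and Thrb was not tested. Among 13 thyroid hormone target genes tested, 0 were called by edgeR or limma voom, 1 by DESeq2, and 2 had an unadjusted p under 0.05. The log2 fold change was above 0 for 1 of them, and the median was -0.10. Of 7 genes for the supply of thyroid hormone (deiodinases, transporters and a binding protein), 0 were called by edgeR or limma voom and 2 by DESeq2, and 2 had an unadjusted p under 0.05.

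The 3 PPAR genes gave no call. Ppard (ENSMUSG00000002250, chromosome 17, 28232700 to 28301474), the most widely expressed PPAR, went from 33.4 ± 2.68 to 36.1 ± 1.72 CPM (SD, n = 4 each), a log2 fold change of 0.11 (SE 0.07, adjusted p 0.395 in edgeR). Ppara (ENSMUSG00000022383, chromosome 15, 85734983 to 85802819), the PPAR of fatty acid oxidation, had 2.77 ± 0.348 and 2.51 ± 0.516 CPM (SD, n = 4 each) and a log2 fold change of -0.15 (SE 0.17, adjusted p 0.669 in edgeR). Pparg (ENSMUSG00000000440, chromosome 6, 115360951 to 115490399), the PPAR of adipocytes and macrophages, had 0.495, 0.362, 0.444 and 0.413 CPM under GFP and 0.781, 0.378, 0.876 and 0.81 CPM under RXRa. RXRa library 2 lay among the GFP libraries and the other three above them, with a log2 fold change of 0.70 (SE 0.29, adjusted p 0.197 in edgeR). Of 17 PPAR target genes tested, the mitochondrial thiolase gene Acaa2 was called, lower by a log2 fold change of -0.33 (SE 0.07, adjusted p 0.0304 in edgeR), and no other by edgeR. DESeq2 called 3 of the 17, all lower, against 8.71% of all genes by that tool (6.09% higher and 2.63% lower), and edgeR with library totals called 0.

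Vdr (ENSMUSG00000022479, chromosome 15, 97854425 to 97910630), the receptor of active vitamin D, had the largest fitted change of the 10 and was not called. It had 0.884, 0.941, 0.407 and 0.338 CPM under GFP and 0.742, 1.69, 1.25 and 1.78 CPM under RXRa. RXRa libraries 2 to 4 were above every GFP library and RXRa library 1 was not. Its fitted log2 fold change was 1.08 (SE 0.38, adjusted p 0.151 in edgeR), on 19 to 49 counts per RXRa library. Of 5 vitamin D target genes tested, 0 were called by edgeR or limma voom and 1 by DESeq2, and 2 had an unadjusted p under 0.05.

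**Figure D2:**
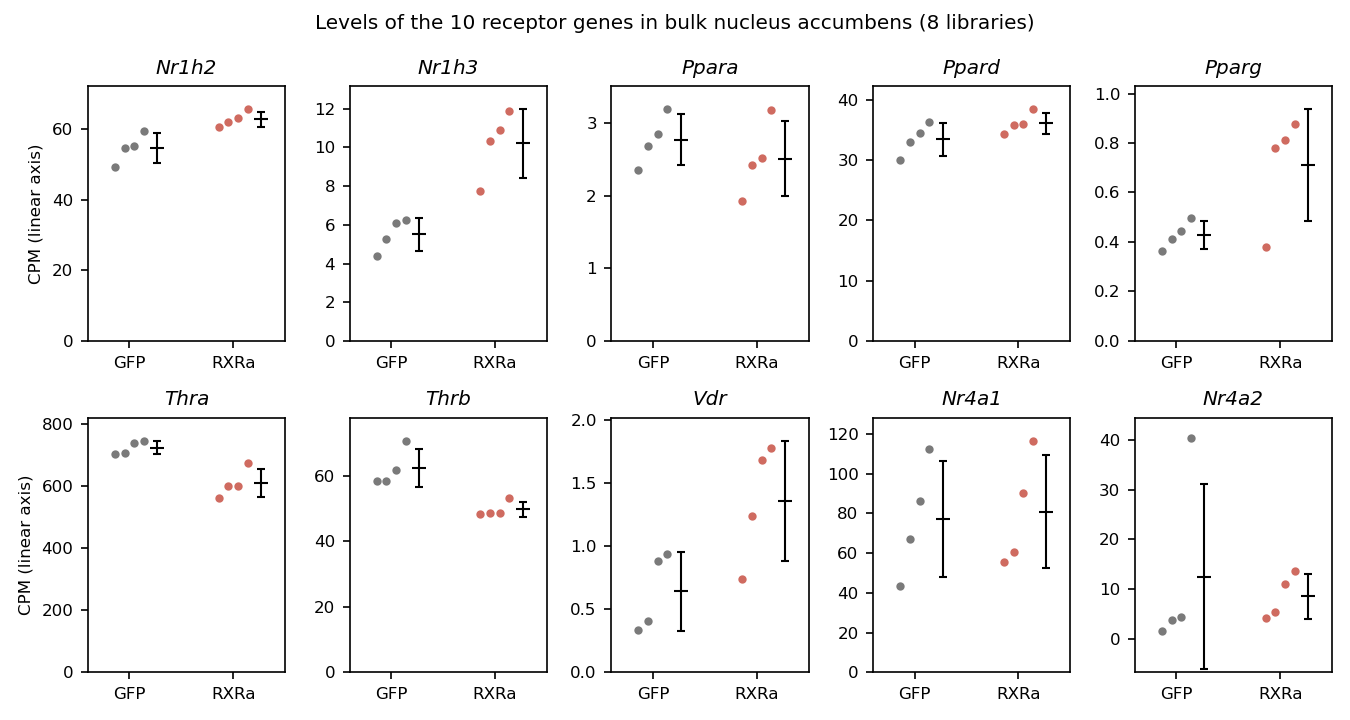
CPM on a linear axis from 0 (slightly below 0 for Nr4a2, to hold its error bar) of each receptor gene in the 4 GFP and 4 RXRa bulk libraries. Points are libraries, sorted by level, and bars are mean ± SD. Nr1h2 and Nr1h3 lie higher and Thra and Thrb lower in every RXRa library, and 1 GFP library of Nr4a2 stands at 40.5 CPM.

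The NR4A genes varied more between libraries than between vectors. Nr4a1 (ENSMUSG00000023034, chromosome 15, 101254269 to 101274795) ranged from 43.5 to 112 CPM under GFP and from 55.6 to 117 CPM under RXRa, with a log2 fold change of 0.06 (SE 0.31, adjusted p 0.935 in edgeR) that turned negative in 3 of 8 fits that leave out a library, where it ranged from -0.16 to 0.30. Among 15 other activity-induced genes, 0 were called by edgeR, DESeq2 or limma voom and 2 had an unadjusted p under 0.05.

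Nr4a2 (ENSMUSG00000026826, chromosome 2, 57106830 to 57124003) had 1.52, 3.73, 40.5 and 4.43 CPM under GFP and 11.1, 5.44, 13.6 and 4.21 CPM under RXRa. GFP library 3 and RXRa libraries 1 and 3 stood above the rest. The same 3 libraries had the highest summed level of 5 cortical excitatory neuron markers, at 725, 458 and 542 CPM, against 7.43 to 99.8 CPM in the other five. The log2 fold change of Nr4a2 was -0.55 (SE 0.90, adjusted p 0.771 in edgeR) over all libraries, 1.41 without GFP library 3, and 0.61 without those 3 libraries (edgeR adjusted p 0.407), a choice made after the marker levels were seen. Without them Nr1h3 was called, with a log2 fold change of 0.94 (edgeR adjusted p 0.00807), and Thrb was not, at -0.29 (edgeR adjusted p 0.125). Of 10 NR4A target and dopamine genes, Gch1, the first enzyme of tetrahydrobiopterin synthesis, was called higher in bulk by a log2 fold change of 0.86 (SE 0.18, adjusted p 0.0352 in edgeR). Of 8 genes of oxysterol and vitamin D metabolism 0 were called in bulk by edgeR, DESeq2 or limma voom, with 1 at an unadjusted p under 0.05. Of 7 other RXR partners and RXR genes 0 were called by edgeR or limma voom and 1 by DESeq2, with 2 at an unadjusted p under 0.05.

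**Figure D3:**
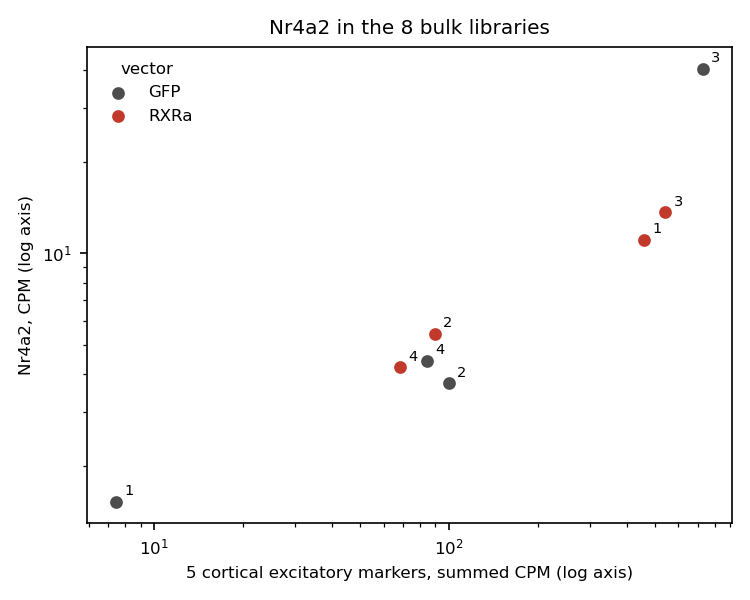
Nr4a2 level against the summed level of 5 cortical excitatory neuron markers (both CPM, log axes) in the 8 bulk libraries, numbered by replicate. GFP library 3 is highest on both axes, followed by RXRa libraries 3 and 1, and GFP library 1 is lowest on both.

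The sorted comparison asks the same within each neuron type. No receptor gene was called in D1 nuclei by edgeR, DESeq2 or limma voom, nor was any of the 43902 genes tested (0.0%), of which 3518 had an unadjusted p under 0.05 in edgeR. Thrb was the only receptor gene with an unadjusted p under 0.05, with a log2 fold change of 0.24 (SE 0.09, adjusted p 0.581 in edgeR). Its level had a low, median and high of 252, 303 and 395 CPM in 10 EGFP libraries and 269, 365 and 418 CPM in 8 RXRa libraries, so the groups overlapped, with 7 of 8 RXRa libraries above the EGFP median of their sex. The other 9 had log2 fold changes between -0.11 and 0.20, the highest being Thra at 0.20 (SE 0.17, adjusted p 0.745 in edgeR). The 9 target, supply and partner gene lists likewise had 0 calls by edgeR, DESeq2 and limma voom in D1, with 0 to 3 genes each at an unadjusted p under 0.05. Silent-gene density had a median of 0.462 CPM per kb in D1 RXRa and 0.529 CPM per kb in D1 EGFP libraries. All 7 markers of striatal projection neurons had a log2 fold change above 0, with 4 at an unadjusted p under 0.05 in edgeR and 0 called. The part of either in the values of Thra and Thrb was not tested.

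In D2 nuclei both thyroid hormone receptor genes and Nr1h2 rose with RXRa. These 3 calls among 10 compare with 22.1% of all 43902 genes tested, 14.9% called higher and 7.14% called lower, so calls were common among all genes in this comparison. With library totals in place of TMM scaling the calls over all genes went from 6548 higher and 3135 lower to 2057 higher and 9334 lower, and the median log2 fold change of all genes from -0.04 to -0.20. Under library totals Thra was called higher (0.43), Thrb (0.11, edgeR adjusted p 0.183) and Nr1h2 (0.25, edgeR adjusted p 0.124) were not, and Nr1h3, Ppara, Pparg and Nr4a2 were called lower. The changes below are those with TMM scaling.

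Thra had 32.1, 54.3, 38.8 and 32.0 CPM in the female EGFP libraries and 75.9, 45.2, 83.4 and 51.0 CPM in the female RXRa libraries. In males it had 33.6, 54.4, 45.6, 47.6 and 50.1 CPM under EGFP and 33.2, 58.9, 88.4 and 89.5 CPM under RXRa. The groups overlapped: 5 of 8 RXRa libraries were above every EGFP library of the same sex, and 1 male RXRa library was below all of them. The log2 fold change over both sexes was 0.62 (SE 0.18, adjusted p 0.0171 in edgeR), with 0.70 (SE 0.26) in females and 0.54 (SE 0.24) in males. The difference between the sexes was -0.16 (SE 0.35, adjusted p 1 in edgeR).

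Thrb had 294, 284, 309 and 339 CPM in the female EGFP libraries and 361, 314, 483 and 439.5 CPM in the female RXRa libraries. In males it had 302, 313, 307, 335 and 355 CPM under EGFP and 318, 294, 422 and 461 CPM under RXRa. Here too 5 of 8 RXRa libraries were above every EGFP library of their sex, and male RXRa library 2 was below all of them. Its log2 fold change was 0.30 (SE 0.10, adjusted p 0.027 in edgeR).

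Nr1h2 was counted far less, with 32 to 85 counts in a D2 library. It had 2.64, 2.27, 3.20 and 2.33 CPM in the female EGFP libraries and 3.70, 2.75, 3.98 and 2.83 CPM in the female RXRa libraries. In males it had 2.08, 3.05, 2.51, 3.56 and 2.94 CPM under EGFP and 2.26, 4.13, 4.68 and 5.25 CPM under RXRa. Again 5 of 8 RXRa libraries were above every EGFP library of their sex, for a log2 fold change of 0.42 (SE 0.14, adjusted p 0.0326 in edgeR). Limma voom did not call it (adjusted p 0.0583), and the call held in 9 of the 17 fits that leave out a library.

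Relative to silent genes the median ratio under EGFP and RXRa was 3.04 and 5.10 for Thra, 1.54 and 2.13 for Thrb, and 1.20 and 1.96 for Nr1h2. With RXRa the density at silent genes, by which these ratios are divided, was lower, and most markers of the sorted cells were higher. Silent-gene density was 0.491 to 0.580 CPM per kb in the D2 EGFP libraries and 0.303 to 0.550 CPM per kb in the D2 RXRa libraries. Markers of striatal projection neurons were called higher for 6 of 7 genes, and their summed level was 1932 to 2880.2 CPM under EGFP and 2144 to 4782 CPM under RXRa. Of the D2 markers 5 of 6 tested were called higher, with sums of 1322 to 2007 and 1459 to 3471 CPM. These sums are not scaled by gene length, and the D2 list summed to 544 to 695 CPM in D1 EGFP libraries. No marker of either list was at 0, but at least 51246 genes had a count in each sorted library. D1 markers had 4 called higher and 1 lower of 7. Astrocyte, endothelial and vascular wall markers each had 2 called lower, T cell and cortical markers 1 lower each, microglia 1 in each direction, and the 4 remaining lists 0 by edgeR (with 2, 1, 1 and 1 genes at an unadjusted p under 0.05). The part of the markers in the values of the 3 genes was not tested. In the fit that also held silent-gene density the log2 fold change was 0.02 for Thra (edgeR adjusted p 1), -0.00038 for Thrb (edgeR adjusted p 1) and 0.02 for Nr1h2 (edgeR adjusted p 1), and edgeR called 0 of the 43902 genes (1347 had an unadjusted p under 0.05). All 3 calls were also lost without D2 female RXRa library 4 and without D2 male RXRa library 5.

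**Figure D4:**
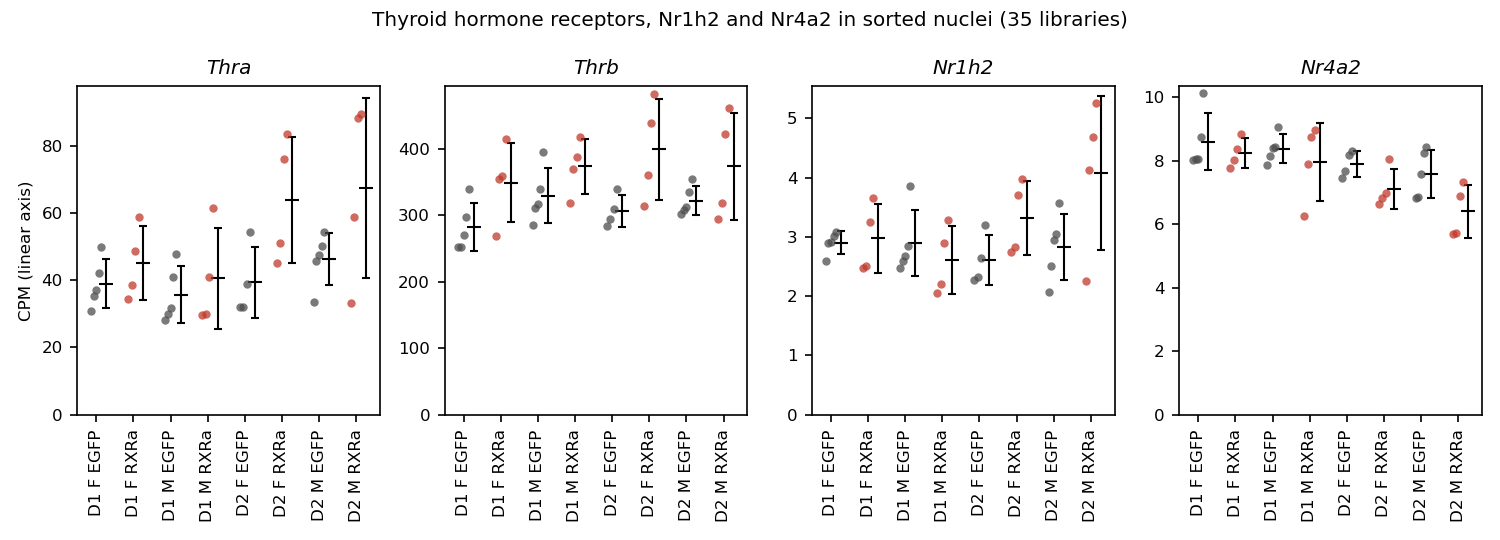
CPM on a linear axis from 0 of Thra, Thrb, Nr1h2 and Nr4a2 in the 35 sorted libraries with a group (F female, M male). Points are libraries, sorted by level, and bars are mean ± SD. In D2 nuclei the RXRa libraries of Thra, Thrb and Nr1h2 reach above the EGFP libraries and spread widely, while Nr4a2 lies slightly lower.

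The other receptor genes did not pass in D2. Nr4a2 came nearest, with a low, median and high of 6.81, 7.68 and 8.42 CPM in 9 EGFP libraries and 5.69, 6.86 and 8.04 CPM in 8 RXRa libraries, a log2 fold change of -0.20 (SE 0.08, adjusted p 0.0519 in edgeR). Pparg (-0.12, SE 0.06), Ppara (-0.15, SE 0.08), Vdr (-0.14, SE 0.08), Nr1h3 (-0.11, SE 0.08), Nr4a1 (-0.11, SE 0.16) and Ppard (-0.04, SE 0.10) had log2 fold changes below 0 with edgeR adjusted p-values from 0.11 to 0.774. Nr1h3, the gene called in bulk, had 9.09, 9.81 and 11.1 CPM under EGFP and 6.78, 9.52 and 10.7 CPM under RXRa as its low, median and high in D2. Except for Nr4a1, the genes named in this paragraph had a mean density in nuclei within the range of silent genes. Silent-gene density had a median of 0.428 CPM per kb in D2 RXRa and 0.553 CPM per kb in D2 EGFP libraries. With it in the fit the log2 fold change of Pparg was 0.053, and those of the others stayed below 0.

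The thyroid hormone receptor genes had fold changes of opposite sign in bulk tissue and in D2 nuclei. Thrb had a log2 fold change of -0.33 in bulk, a call lost in all 8 fits that leave out a library, and 0.30 in D2 nuclei, which became 0.11 with library totals and -0.00038 with silent-gene density in the fit. Thra had -0.25 in bulk, where edgeR did not call it, and rose in D2 nuclei, except that the fit with silent-gene density gave 0.02. The tables differ in vector, RNA selection and material, and the difference between them was not tested.

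**Figure D5:**
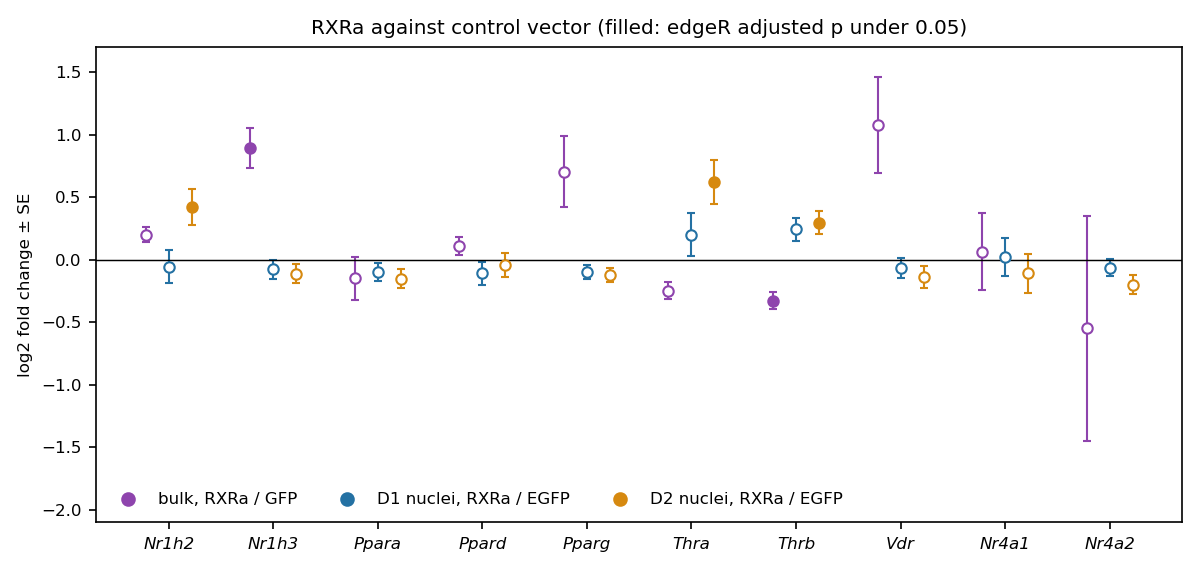
log2 fold change ± SE of each receptor gene, RXRa against control vector, in bulk tissue, D1 nuclei and D2 nuclei. Filled points have an edgeR adjusted p under 0.05: Nr1h3 and Thrb in bulk, and Nr1h2, Thra and Thrb in D2.

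The effects of RXRa in D2 and D1 nuclei were not shown to differ for any receptor gene. The difference, D2 minus D1, was 0.48 on the log2 scale for Nr1h2 (SE 0.19, adjusted p 0.601 in edgeR), 0.42 for Thra (SE 0.25, adjusted p 0.604 in edgeR) and 0.05 for Thrb (SE 0.13, adjusted p 0.915 in edgeR). No gene was called in this test over all 43902 genes (0.0%) by edgeR, DESeq2 or limma voom, and 3609 had an unadjusted p under 0.05. The tests of each sex alone and of the difference between the sexes also called 0 receptor genes by edgeR (0.0% of all genes in each). In D2 nuclei 11080 genes in females and 8656 in males had an unadjusted p under 0.05. DESeq2 called 3 receptor genes in D2 nuclei of females, against 8.36% of all 43902 genes by that tool (7.29% higher and 1.08% lower).

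Genes of the pathways were called in both directions in D2, where 22.1% of all genes were called, 14.9% higher and 7.14% lower. With library totals those shares were 25.9%, 4.69% and 21.3%. Of 14 LXR target genes 5 rose and 1 fell: Mylip, which targets the LDL receptor for breakdown, rose by 0.25 (SE 0.06, adjusted p 0.0112 in edgeR) and the sterol transporter Abcg4 by 0.31 (SE 0.09, adjusted p 0.0144 in edgeR), while Abca1 fell by 0.22 (SE 0.06, adjusted p 0.0156 in edgeR). The list had a median of 0.06, against -0.04 over all genes, and with library totals 1 was called higher and 3 lower. Of 19 PPAR target genes 2 rose and 1 fell, among them 0.18 for Hadha (SE 0.06, adjusted p 0.0342 in edgeR), of mitochondrial fatty acid oxidation, and -0.24 for the fatty acid transporter Cd36 (SE 0.08, adjusted p 0.0277 in edgeR). With library totals 0 PPAR target genes were called higher and 7 lower.

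Of 15 thyroid hormone target genes 4 rose and 1 fell. Camk4, a calcium-dependent kinase, rose by 0.52 (SE 0.13, adjusted p 0.012 in edgeR), the transcription factor Klf9 by 0.44 (SE 0.13, adjusted p 0.0198 in edgeR) and the clock-output factor Dbp by 0.75 (SE 0.22, adjusted p 0.0205 in edgeR). The median of the list was 0.11, and with library totals 2 were called higher and 5 lower. Of 7 genes for thyroid hormone supply, Crym, which binds thyroid hormone in the cytosol, rose by 0.53 (SE 0.12, adjusted p 0.0111 in edgeR), and the transporters Slc16a10 (-0.18, SE 0.05, edgeR adjusted p 0.0152) and Slco1c1 (-0.20, SE 0.07, edgeR adjusted p 0.0272) fell. With library totals 1 was called higher and 3 lower.

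Of 10 NR4A target and dopamine genes 2 rose and 2 fell, among them Drd2 at 0.75 (SE 0.16, adjusted p 0.0111 in edgeR), Bdnf at -0.30 (SE 0.06, adjusted p 0.0111 in edgeR) and the dopamine transporter gene Slc6a3 at -0.19 (SE 0.06, adjusted p 0.0173 in edgeR). Of 8 genes of oxysterol and vitamin D metabolism, Dhcr7 (0.25, SE 0.07, edgeR adjusted p 0.0184) and the brain cholesterol hydroxylase gene Cyp46a1 (0.43, SE 0.15, edgeR adjusted p 0.0355) rose and the 25-hydroxylase gene Ch25h fell (-0.68, SE 0.20, edgeR adjusted p 0.0196). Of 11 other RXR partners and RXR genes only Rarb was called, at 0.59 (SE 0.17, adjusted p 0.0184 in edgeR). No vitamin D target gene and no activity-induced gene was called in D2 by edgeR, DESeq2 or limma voom, with 3 of 10 and 0 of 15 at an unadjusted p under 0.05. With library totals edgeR called 0 vitamin D target genes higher and 5 lower (median -0.31), and 0 activity-induced genes higher and 2 lower. The NR4A list then had 1 higher and 5 lower, oxysterol and vitamin D metabolism 0 and 2, and the other RXR partners 1 and 3. None of the 9 lists had a called gene once silent-gene density entered the fit. Unlike the receptor genes, single genes of these lists were not set against silent genes, whose density was itself lower with RXRa in D2.

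D2 and D1 nuclei were also compared under each vector. Under EGFP no receptor gene was called by edgeR, DESeq2 or limma voom, against 0.121% of all genes (0.0478% higher in D2 and 0.0729% lower). Ppard was lowest in D2 relative to D1, with a log2 fold change of -0.24 (SE 0.09, adjusted p 0.334 in edgeR), and 7 of 9 D2 libraries were below every D1 library of the same sex. Under RXRa 2 receptor genes were called, against 8.36% of all genes (6.85% higher in D2 and 1.51% lower). Thra was higher in D2 by 0.62 (SE 0.18, adjusted p 0.0371 in edgeR), and Nr4a2 was lower, with a log2 fold change of -0.27 (SE 0.08, adjusted p 0.034 in edgeR) and 5 of 8 D2 libraries below every D1 library of the same sex. DESeq2 called 4 receptor genes here, against 13.0% of all genes by that tool (11.2% higher and 1.88% lower). Each of the 2 edgeR calls held in 6 of the 16 fits that leave out a library. With silent-gene density in the fit neither was called (edgeR adjusted p 0.0517 for Thra and 0.0569 for Nr4a2). The mean density in nuclei was 1.09 of the silent-gene median for Ppard and 0.924 for Nr4a2, both within the range of silent genes. These 2 comparisons and the RXRa comparisons share libraries, and their values are not independent of each other.

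Among genes with a mean of at least 5 CPM, the 2 whose log2(CPM + 1) followed each receptor gene most closely were found in each table, as a description. Over the 8 bulk libraries they were Bnip2 (Pearson r 0.992, Spearman rho 1) and Pik3r5 for Nr1h3, Vars and Lmbr1l for Nr1h2, Glud1 and Tcp1 for Thrb, and Eif4h and Tex264 for Thra. They were Acvr2b and Tceal1 for Ppara, Msrb1 and Snx8 for Ppard, Cdhr1 and Ahsa2 for Pparg, and Lpar6 and Tifa for Vdr. For Nr4a1 they were Sdhaf2 (r 0.956, rho 0.976) and Zfp954, and for Nr4a2 Oxr1 (r 0.988, rho 1) and Id2. The closest gene had an r from 0.956 to 0.992 for all 10, found among at least 12800 genes over 8 libraries.

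Over the 35 sorted libraries the closest genes were Agap2 (r 0.986, rho 0.980) and Sez6 for Thra, B230303A05Rik and Fbxl17 for Thrb, Vegfa and Kctd17 for Nr1h2, and Myo5c and Arhgef3 for Nr1h3. They were Cdh23 and Itga9 for Ppara, Tle3 and Grin2d for Ppard, Hormad2 and Dnah3 for Pparg, and Col23a1 and Plut for Vdr. For Nr4a1 they were 1700016P03Rik (r 0.892, rho 0.817) and the activity-induced gene Npas4 (r 0.861, rho 0.781), and for Nr4a2 4930551I15Rik (r 0.746, rho 0.678) and Slc6a3 (r 0.724, rho 0.740). The sorted libraries share the differences in silent-gene density given above.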

How the data were processed

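The authors deposited 2 tables of read counts per gene, for 8 bulk libraries and for 36 sorted libraries, of which 35 were assigned to a group. Per the labels, bulk libraries were made from poly(A) RNA and sorted libraries from ribosome-depleted total RNA of nuclei, read as pairs of 150 bases. The submitters' processing notes name FastQC, Trimmomatic, HISAT2, Picard, featureCounts, Subread and GRCm38. The annotation release, the strand setting and the counting of introns are not given in the sources used here. Positions and lengths come from GENCODE M21, which matched 55394 of 55487 gene identifiers.

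Each table was fitted with edgeR 4.0.16 (R 4.3.3): filterByExpr, TMM scaling, quasi-likelihood F tests of group means, Benjamini-Hochberg adjustment over all genes tested, and a threshold of 0.05. Effects over both sexes weight them equally. The script was tested on simulated data. Alternatives were other scalings and filters, DESeq2 1.42.0, limma 3.58.1 (voom), a replicate block, silent-gene density as a covariate, D1 and D2 fitted apart, and each library left out. Tables were made with Python 3.11.15 and pandas 2.3.3.

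The 10 receptor genes and all lists were chosen with earlier results of these data known. All 10 are named in each main comparison, and of each list at most 3 called genes of smallest p. Values of some single list genes are not reported here. The 13 lists of cell type markers were summed per library. Depth sets the precision, and n is 4 to 10 libraries a group.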

Additional observations from a re-analysis of the deposited data

Results flagged for a closer look

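A library stood apart from the rest of its group, by Dixon's criterion, in 4 of 100 groups of 4 or 5 libraries tested over the 10 receptor genes, and chance gives about 1 in 20. Nr4a2 in bulk GFP library 3 was at 40.5 CPM against 1.52 to 4.43 CPM in the other GFP libraries. Thrb in bulk RXRa library 4 was at 53.3 CPM against 48.2 to 48.7 CPM. Nr1h2 in D1 male EGFP library 2 was at 3.86 CPM against 2.47 to 2.85 CPM, and Ppard in D1 female EGFP library 2 was at 38.8 CPM against 41.1 to 41.7 CPM.

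The sorted library of D2 nuclei of females that was left out of every comparison had 2941 counts of the vector RXRa sequence. That count is within the 1216 to 13017 of the sorted RXRa libraries and far above the 0 to 17 of the sorted EGFP libraries. The library lay above all 4 D2 female EGFP libraries for 3 receptor genes. Nr1h2 was at 4.42 CPM against 2.27 to 3.20 CPM, Ppard at 42.3 CPM against 28.3 to 38.6 CPM, and Nr4a1 at 23.5 CPM against 14.1 to 21.0 CPM. Nr4a2, at 6.96 CPM, lay below their 7.45 to 8.30 CPM, and the other 6 lay within the EGFP range. Of those, Ppara (46.1 CPM), Pparg (72.8 CPM), Thrb (286 CPM) and Vdr (33.4 CPM) were outside the range of the female D2 RXRa libraries. Nr1h2 and Ppard were above that range too, which reached 3.98 and 40.4 CPM for them, and Nr4a1 and Nr4a2 lay within it.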

How the results depend on the processing

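Leave-one-out aside, 443 of the values for single receptor genes kept their direction and their side of the threshold under an alternative, 18 lost and 8 gained a call, and 18 changed sign. Of the counts of receptor genes called, 92 stayed within 1.5 times the reported count and 12 did not. The cause was not tested for any of these changes.

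In bulk tissue the count of 2 became 1 with library totals. It also became 1 without the 3 libraries richest in cortical markers, an alternative chosen after seeing the data. In D2 nuclei the count of 3 became 5 with library totals, 0 when the fit held silent-gene density (the covariate), and 1 with D1 and D2 fitted apart. DESeq2 called 3 in D2 nuclei of females instead of 0, beside 3672 instead of 0 of all 43902 genes. Between D2 and D1 nuclei under RXRa the count of 2 became 1 with library totals, 4 with DESeq2 (5722 of all genes), 0 with limma voom (864 of all genes) and 0 with the covariate. Over all genes in bulk 687 became 1619 with DESeq2 and 1115 without the 3 libraries, and in D2 nuclei 9683 became 2547 with D1 and D2 fitted apart.

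Signs changed as follows on the log2 scale. Nr4a2 in bulk was 0.43 with limma voom and 0.61 without the 3 libraries. Library totals gave -0.051 for Nr4a1 in D1, -0.082 for Nr1h2 in D1 females, and -0.052 for Thrb in D2 minus D1. For Nr1h2 in D1 females limma voom gave -0.0075. The covariate gave -0.11 for Thra and -0.20 for Nr4a1 in D1, 0.053 for Pparg and -0.00038 for Thrb in D2, -0.27 for Nr1h2 and -0.23 for Thra in D1 females, -0.10 for Nr1h2 in D2 females, -0.064 for Thra and -0.067 for Thrb in D2 males, and -0.094 for Thrb in D2 minus D1.

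Replicate numbers recur across groups. In no comparison did all same-numbered libraries correlate above 0.1 in their deviations, and not every library correlated best with its own number. The values were mixed, with r 0.53 for replicate 3 and -0.56 for replicate 1 in bulk, and 0.64 for replicate 1 in D2 males. Deviations within so small a group depend on each other, so these correlations cannot decide whether a number marks a shared batch. With the replicate block the count of receptor genes called was 0 in bulk (0 genes of all) and 0 between D2 and D1 under RXRa. Nr1h3 in bulk was 0.89 (adjusted p 0.0918 in edgeR), Thrb in bulk -0.32 (adjusted p 0.0664 in edgeR), Nr4a2 in bulk was 0.30, and Nr1h2 in D1 females was -0.0044.

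Leaving out each library in turn, the count ranged from 0 to 2 in bulk, 0 to 3 in D2 females, 0 to 2 in D2 males, 0 to 6 in D2, and 0 to 5 between D2 and D1 under RXRa, and was 0 in the other comparisons. In bulk it was 0 without GFP library 2 or 4 or RXRa library 2, 3 or 4. In D2 it was 0 without female RXRa library 4 or male RXRa library 5, 1 without female EGFP library 1, 5 without female RXRa library 3 and 6 without male RXRa library 1. The 3 calls in D2 females came without RXRa library 3, and the 2 in D2 males without RXRa library 1. The log2 fold change ranged from -0.16 to 0.30 for Nr4a1 and from -0.92 to 1.41 for Nr4a2 in bulk, from -0.078 to 0.081 for Nr4a1 in D1, from -0.24 to 0.037 for Nr4a1 in D2, from -0.085 to 0.10 for Nr1h2 in D1 females, from -0.081 to 0.31 for Thra in D1 males, and from -0.015 to 0.10 for Thrb in D2 minus D1. Depth limits Vdr and Pparg in bulk and Nr1h2 in nuclei, all under 100 counts a library. Ppara in bulk was low as well, with means of 2.77 CPM under GFP and 2.51 CPM under RXRa.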
